A study of Mus musculus with 12 samples.

Results

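The genes described here are 43 mouse genes for ribosome biogenesis and other nucleolar functions, chosen by name from the 54532 genes of the deposited expression table. The choice was made with earlier results of these data known. All 43 names were found once in the table, all are protein-coding, and they lie on 18 chromosomes. RNA-seq libraries came from MC38, a line of mouse colorectal cancer cells, with 3 libraries in each of 4 groups. One group received nintedanib at 3 µM together with 8 Gy of X-rays (the combination), one received nintedanib at 3 µM alone, one received 8 Gy of X-rays alone, and one was untreated (control). The labels give 24 h for the treated groups and no time for the controls. The labels describe 3 independent repeats, and all groups are the same cell line in culture, with no normal tissue or other line beside it. Nintedanib is a tyrosine kinase inhibitor that blocks the receptors for VEGF, FGF and PDGF.

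Ribosomes are built in the nucleolus. RNA polymerase I copies the ribosomal DNA into a long precursor, small nucleolar ribonucleoproteins (snoRNPs) guide its methylation and pseudouridylation, and a large set of assembly factors cuts and folds it into the small and large subunits. The pathway is one of the main biosynthetic costs of a dividing cell, and many of its genes are known targets of the transcription factor Myc, which binds the E-box sequence CACGTG. By role, 6 of the genes belong to polymerase I transcription, 8 to snoRNPs, 5 encode abundant nucleolar proteins with several functions, 13 act in small subunit assembly and 11 in large subunit assembly.

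In controls the 43 genes ranged from 6.77 FPKM for Dimt1 to 389 FPKM for Npm1, with a median of 31.8 (FPKM corrects fragments for gene model length and sequencing depth, so levels can be set side by side between genes). The lowest count behind any of their values was 129 fragments, in libraries of 16103528 to 18196615 fragments. All 43 reached 1 FPKM in 3 or more libraries, the filter for testing, which 13012 genes passed in all. Nintedanib replicate 3 had the lowest share of fragments in small RNA genes, 0.137% against 0.259% to 0.484% in the other libraries, and the highest mitochondrial share, 2.12%. That share was 1.45% to 1.64% in combination libraries and 1.42% to 2.12% in nintedanib libraries, all above the 1.245% to 1.36% of control libraries. Radiation libraries spanned 1.23% to 1.53% and so overlapped every other group, with replicates 1 and 2 (1.51% and 1.53%) above all controls. Its part in the results was not tested. Of 8 epithelial markers for the labelled cell type, 2 reached an FPKM of 1, Epcam was listed at 0 in every library and Cdh1 stood at 4.12 to 8.73 FPKM, while all 8 mesenchymal markers reached it and Vim stood at 498 to 618 FPKM. The sum of the epithelial markers moved with the groups. It was 11.3 to 13.7 FPKM in the combination, 6.45 to 9.5 with nintedanib, 6.8 to 7.16 with radiation and 4.92 to 5.82 in controls. Most of it was Cdh1 (mean 8.26 FPKM in the combination, 4.49 in controls) and Krt19 (3.58 and 0.842). The other epithelial markers stayed under 1 FPKM. The mesenchymal sum was 1530 to 1720 FPKM in the combination and 1530 to 1670 with nintedanib, above the 1340 to 1450 with radiation and 1350 to 1470 in controls. Its markers did not all move one way. Mean Sparc was 882 FPKM in the combination and 893 with nintedanib, against 712 in controls, and Col1a2, Fn1, Zeb2 and Cdh2 also had higher means in both. Vim (549 and 533 against 579), Zeb1 and Col1a1 had lower means in both. Of 6 leukocyte markers 1 reached an FPKM of 1 (Lyz2) and Ptprc did not exceed 0.0292 FPKM. Their sum was 0.639 to 1.59 FPKM in the combination, 0.557 to 1.18 with nintedanib, 0.436 to 0.881 with radiation and 0.132 to 0.308 in controls. Lyz2 made up most of it (mean 1.12 FPKM in the combination, 0.208 in controls). Of 5 endothelial markers 1 reached an FPKM of 1, Emcn was listed at 0, and the sums of the groups overlapped. The part of these markers in the results was not tested.

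Treated cells had less of these transcripts, and their levels were lower with the drug than with radiation. Together the 43 genes took 0.410%, 0.424% and 0.482% of all fragments in combination libraries, 0.525%, 0.429% and 0.443% in nintedanib libraries, 0.749%, 0.732% and 0.713% in radiation libraries, and 0.914%, 0.969% and 0.923% in control libraries. Every nintedanib and combination library lay under every radiation library, and every radiation library lay under every control library. The control group had the highest mean for 43 of 43 genes. The radiation group was the next highest for 42 of them, and the lowest mean was in the combination for 31 genes and in nintedanib alone for 11. In bulk RNA, fewer cells with a transcript and less of it per cell cannot be told apart, and no value here measures ribosomes or rRNA.

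Relative to the control mean, the median gene stood at 45.8% in the combination, 47.7% with nintedanib and 73.3% with radiation. The ranges were 27.8% to 80.8%, 34.4% to 81.7%, and 50.9% to 93.2% in the same order of groups. Replicates of a group were not level with each other across the set. Nintedanib replicate 1 was the highest of its group for 37 of the 43 genes, combination replicate 3 for 38 and control replicate 2 for 28.

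**Figure D1:**
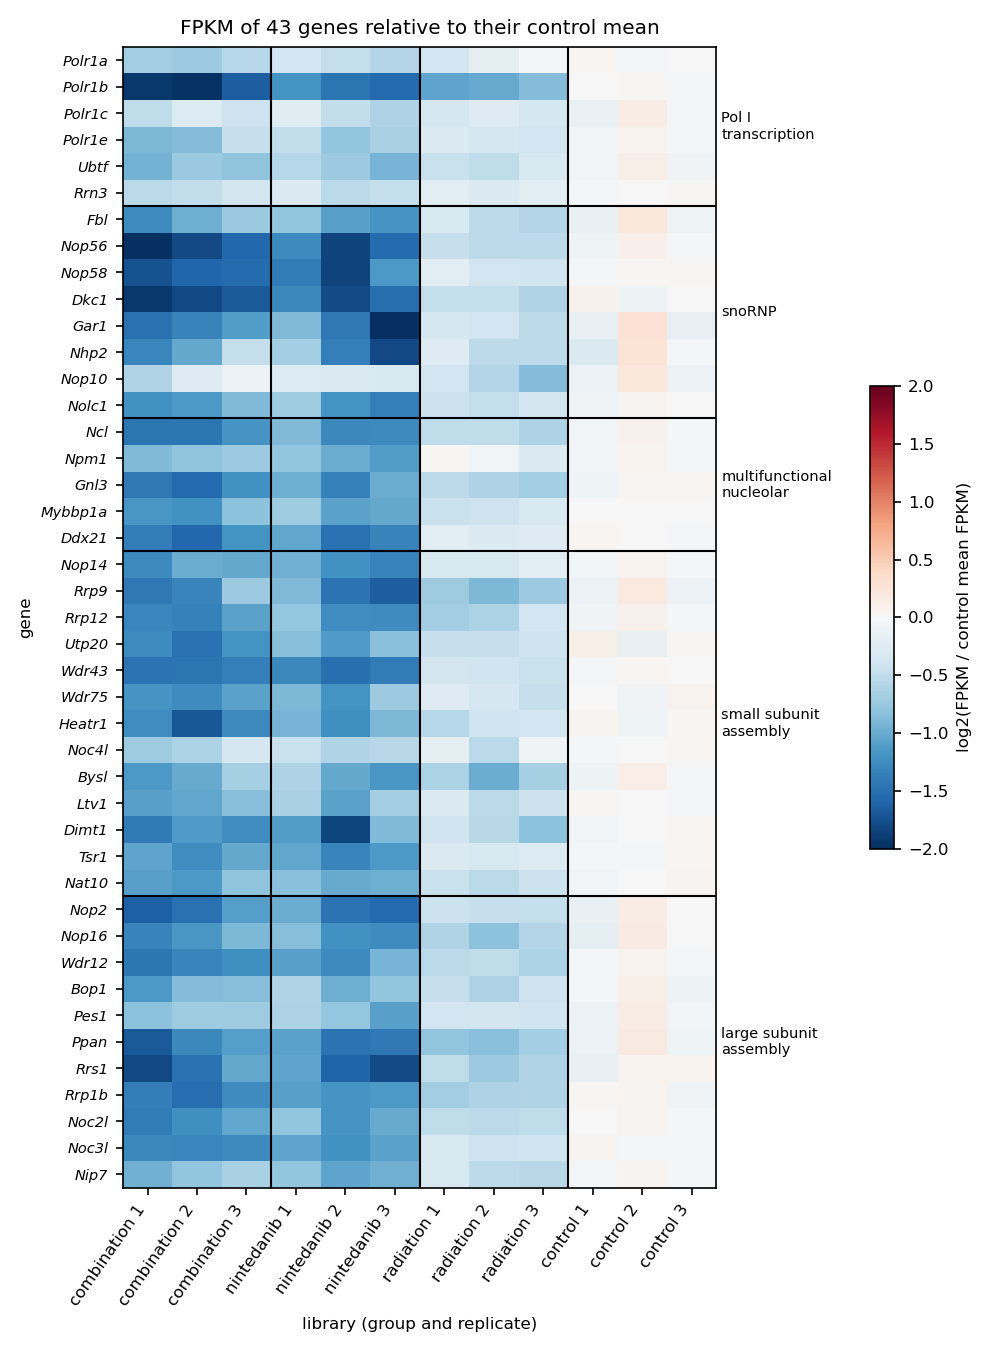
Heat map of log2(FPKM / control mean FPKM) for the 43 genes (vertical axis, grouped by role) in the 12 libraries (horizontal axis, grouped by treatment). Blue is below the control mean; nearly the whole combination and nintedanib blocks are blue, the radiation block is paler, and Nop10 is the palest row in the nintedanib block.

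Promoter sequences of 38 of the 43 genes were matched by symbol in RefSeq (GRCm38.p6), as windows from 250 bases before to 50 bases after the gene start. Npm1, Fbl, Rrp12, Bop1 and Rrs1 had no entry there. A window was searched for CACGTG, the E-box that Myc binds best, which reads the same on both strands, and for the related CACGCG on both strands. CACGTG was present for 8 of the 38 genes (Ltv1, Mybbp1a, Nop2, Pes1, Rrn3, Tsr1, Utp20 and Wdr43), which is 21.1%, against 8.09% of all 27025 genes in the RefSeq table and 12.1% of the 8949 tested genes matched there. CACGCG was present for 15 of the 38 (39.5%), against 10.5% of all genes and 20.5% of the tested ones. A match describes the letters only, and its absence says nothing about binding.
The windows of 4 genes are shown because these genes were among the most reduced (Wdr43, Nop2 and Nop56) or the least reduced (Rrn3) and differ in the motif, which is in capitals: Wdr43 with 1 copy at base 268 of the window, Rrn3 with copies at bases 36 and 203, Nop2 with 1 copy at base 191, and Nop56, the most reduced gene, with neither motif. They lie at chr17:71615965-71616264, chr16:13780449-13780748, chr6:125131633-125131932 and chr2:130274162-130274461 (GRCm38, all on the plus strand).
Wdr43: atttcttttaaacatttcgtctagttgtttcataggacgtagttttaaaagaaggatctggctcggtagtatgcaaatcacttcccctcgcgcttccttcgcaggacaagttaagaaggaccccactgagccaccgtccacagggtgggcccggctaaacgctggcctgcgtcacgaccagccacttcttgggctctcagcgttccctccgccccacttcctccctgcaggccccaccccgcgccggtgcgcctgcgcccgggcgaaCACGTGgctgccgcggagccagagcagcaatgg
Rrn3: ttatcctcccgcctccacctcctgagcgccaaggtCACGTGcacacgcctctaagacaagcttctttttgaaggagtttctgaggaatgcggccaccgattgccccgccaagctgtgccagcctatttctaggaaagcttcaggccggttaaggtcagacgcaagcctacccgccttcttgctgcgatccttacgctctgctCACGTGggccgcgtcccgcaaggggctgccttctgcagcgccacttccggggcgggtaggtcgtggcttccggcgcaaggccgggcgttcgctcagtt
Nop2: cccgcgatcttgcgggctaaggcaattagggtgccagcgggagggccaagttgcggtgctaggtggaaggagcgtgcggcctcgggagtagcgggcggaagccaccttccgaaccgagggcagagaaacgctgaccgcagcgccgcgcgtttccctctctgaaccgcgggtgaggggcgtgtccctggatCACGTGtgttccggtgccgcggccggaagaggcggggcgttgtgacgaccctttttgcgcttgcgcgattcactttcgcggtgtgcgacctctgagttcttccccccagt
Nop56: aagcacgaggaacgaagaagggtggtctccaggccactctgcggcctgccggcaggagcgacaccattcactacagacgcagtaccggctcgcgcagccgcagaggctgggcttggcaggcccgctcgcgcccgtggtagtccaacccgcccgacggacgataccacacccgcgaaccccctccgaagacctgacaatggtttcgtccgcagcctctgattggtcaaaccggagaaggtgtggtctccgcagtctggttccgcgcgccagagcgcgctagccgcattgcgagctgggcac
Genes with and without the E-box both fell. With nintedanib, Wdr43 had a log2 fold change of -1.37, Nop2 of -1.30 and Rrn3 of -0.41, against -1.53 for Nop56. Dkc1 (-1.47), Nop58 (-1.40) and Polr1b (-1.30), whose windows are not shown, also had neither motif. Among the least reduced genes, Polr1a (-0.44) and Noc4l (-0.49) had neither motif as well. Whether the change differs by motif over the 38 genes was not tested.

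Nintedanib alone lowered nearly the whole set. Of the 43 genes, 42 were lower than in control and 0 were higher (limma on log2(FPKM + 1), Benjamini-Hochberg adjusted p under 0.05 over all 13012 genes), where 22.0% of all genes tested were lower and 19.7% higher. The median log2 fold change was -1.02 (range -1.53 to -0.27), against -0.02 over all genes tested, and 22 genes were down by at least 2-fold. All 43 had every nintedanib library under every control library, which held for 26.5% of all genes. Leaving out nintedanib replicate 3, the library with the unusual small RNA share, also gave 42, where 20.5% of all genes tested were lower. Below, library values are given in the order of replicates 1, 2 and 3, every fold change uses log2(FPKM + 1), and SE is the standard error from the limma fit.

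The polymerase I genes had the smallest median log2 fold change of the 5 classes, -0.50, and all 6 were lower. Polr1b, which forms the catalytic centre of the enzyme together with Polr1a, changed the most in the class. Polr1b (chromosome 2, 129100995 to 129126594, plus strand, GRCm38) had 9.27, 7.74 and 7.203 FPKM in nintedanib libraries, against 21.1, 21.7 and 21.0 FPKM in control libraries. The groups lay far apart, with a log2 fold change of -1.30 (SE 0.096, adjusted p = 2.13e-06). Ubtf, the HMG-box protein that coats active ribosomal DNA, had 37.7, 33.9 and 29.4 FPKM with nintedanib, against 53.8, 60.4 and 53.4 FPKM in controls (log2 fold change -0.72, SE 0.095, adjusted p = 0.000124). Polr1e, a dissociable polymerase I subunit, had 6.001, 4.87 and 5.34 FPKM with nintedanib, against 8.13, 8.87 and 8.26 FPKM in controls (-0.56, SE 0.098, adjusted p = 0.000863). Neither gene's groups overlapped. The smallest change in the class was that of Rrn3, which brings polymerase I to its promoter in response to growth signals, with 19.0, 16.0 and 16.8 FPKM with nintedanib, against 22.9, 23.2 and 23.8 FPKM in controls (-0.41, SE 0.071, adjusted p = 0.00077). The largest subunit, Polr1a, and Polr1c, which is shared with polymerase III, also fell, by 0.44 and 0.43 on the log2 scale.

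The snoRNP proteins had the largest, -1.30, and 7 of 8 were lower. Nop56 and Nop58 are paired core proteins of the box C/D snoRNPs, which guide ribose methylation. Nop56 (chromosome 2, 130274430 to 130279313, plus strand) had 47.3, 31.7 and 39.4 FPKM in nintedanib libraries, against 108, 123 and 113 FPKM in control libraries. That was the largest decrease of the 43 genes, with a log2 fold change of -1.53 (SE 0.135, adjusted p = 7.22e-06). Nop58 had 14.5, 10.6 and 17.1 FPKM with nintedanib, against 36.9, 38.6 and 38.6 FPKM in controls (-1.40, SE 0.132, adjusted p = 1.16e-05). The methyltransferase of the same particle, Fbl, fell by 0.97 on the log2 scale.

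The box H/ACA snoRNPs, which guide pseudouridylation and also stabilise telomerase RNA, were split. Dkc1, their pseudouridine synthase on chromosome X, had 17.4, 12.2 and 14.9 FPKM with nintedanib, against 45.2, 39.4 and 42.7 FPKM in controls (-1.47, SE 0.11, adjusted p = 2.46e-06). Their partners Gar1 and Nhp2 fell by 1.37 and 1.24 on the log2 scale. The smallest member of the particle, Nop10 (chromosome 2, 112261926 to 112263269), had 26.3, 26.0 and 25.8 FPKM with nintedanib, against 29.3, 37.0 and 29.2 FPKM in controls. Its groups did not overlap, but the log2 fold change of -0.27 (SE 0.14, 95% interval -0.58 to 0.03) did not pass the test (adjusted p = 0.142), the only one of the 43 that did not. Nolc1, a chaperone that moves snoRNPs to the nucleolus, fell by 1.07.

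The 5 abundant nucleolar proteins all fell, with a median log2 fold change of -1.05. Ddx21, an RNA helicase that couples polymerase I transcription to processing, had 31.5, 23.0 and 25.6 FPKM with nintedanib, against 66.6, 64.4 and 63.2 FPKM in controls (-1.26, SE 0.112, adjusted p = 7.59e-06). Ncl, nucleolin, had 89.1, 67.8 and 68.1 FPKM with nintedanib, against 159.5, 176 and 159.8 FPKM in controls (-1.14, SE 0.113, adjusted p = 1.72e-05). In both genes nintedanib replicate 1 was the highest of its group and still far under the lowest control. Gnl3, the GTP-binding protein nucleostemin, had 16.4, 12.7 and 16.2 FPKM with nintedanib, against 30.4, 33.1 and 33.2 FPKM in controls (-1.05, SE 0.105, adjusted p = 1.72e-05). Mybbp1a, a nucleolar Myb-binding protein, had 76.5, 59.1 and 61.3 FPKM with nintedanib, against 124, 126 and 125 FPKM in controls (-0.93, SE 0.115, adjusted p = 8.05e-05). Npm1, the histone chaperone nucleophosmin and the most abundant transcript of the set, fell by 0.96.

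All 13 small subunit factors fell, with a median log2 fold change of -0.95. Wdr43, a subunit of the complex that binds the nascent precursor first, gave the smallest adjusted p of the set. Wdr43 (chromosome 17, 71616215 to 71659031, plus strand) had 35.4, 30.5 and 33.0 FPKM in nintedanib libraries, against 84.7, 89.4 and 86.3 FPKM in control libraries (-1.37, SE 0.065, adjusted p = 1.45e-07). Both groups were tight and widely separated. Rrp9, a protein of the U3 snoRNP, had 11.4, 7.55 and 6.73 FPKM with nintedanib, against 19.4, 24.1 and 19.4 FPKM in controls (-1.23, SE 0.19, adjusted p = 0.000385). Nop14, a scaffold of the early small subunit particle, had 26.3, 22.1 and 20.3 FPKM with nintedanib, against 49.6, 53.9 and 50.8 FPKM in controls (-1.14, SE 0.098, adjusted p = 6.65e-06). Its partner Noc4l changed the least of the class, with 11.9, 10.7 and 11.03 FPKM with nintedanib, against 15.8, 16.2 and 16.6 FPKM in controls (-0.49, SE 0.114, adjusted p = 0.00483). The other 9 fell by 0.75 (Ltv1, an export and maturation factor) to 1.11 (Tsr1, a late factor related to translational GTPases) on the log2 scale. Among these were the rRNA modifiers Dimt1, a methyltransferase (1.03), and Nat10, an acetyltransferase (0.87).

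All 11 large subunit factors fell too, with a median log2 fold change of -1.02. Rrs1, which helps to place the small 5S particle in the large subunit, had 41.1, 28.3 and 24.9 FPKM with nintedanib, against 77.6, 90.0 and 89.8 FPKM in controls (-1.45, SE 0.195, adjusted p = 0.000146). Nop2, an rRNA cytosine methyltransferase, had 27.3, 19.6 and 18.5 FPKM with nintedanib, against 49.3, 60.1 and 54.1 FPKM in controls (-1.30, SE 0.152, adjusted p = 5.34e-05). Ppan, an early assembly factor, had 10.8, 8.22 and 8.51 FPKM with nintedanib, against 21.0, 25.9 and 21.6 FPKM in controls (-1.23, SE 0.136, adjusted p = 3.62e-05). In all 3 genes nintedanib replicate 1 was the highest of its group, and no groups overlapped. Bop1, Pes1 and Wdr12 form the PeBoW complex, needed to process the large subunit precursor. Bop1 changed the least of the class, with 33.2, 25.4 and 29.0 FPKM with nintedanib, against 49.1, 54.5 and 47.0 FPKM in controls (-0.77, SE 0.11, adjusted p = 0.00023). Pes1 fell by 0.80 and Wdr12 by 0.93 on the log2 scale.

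**Figure D2:**
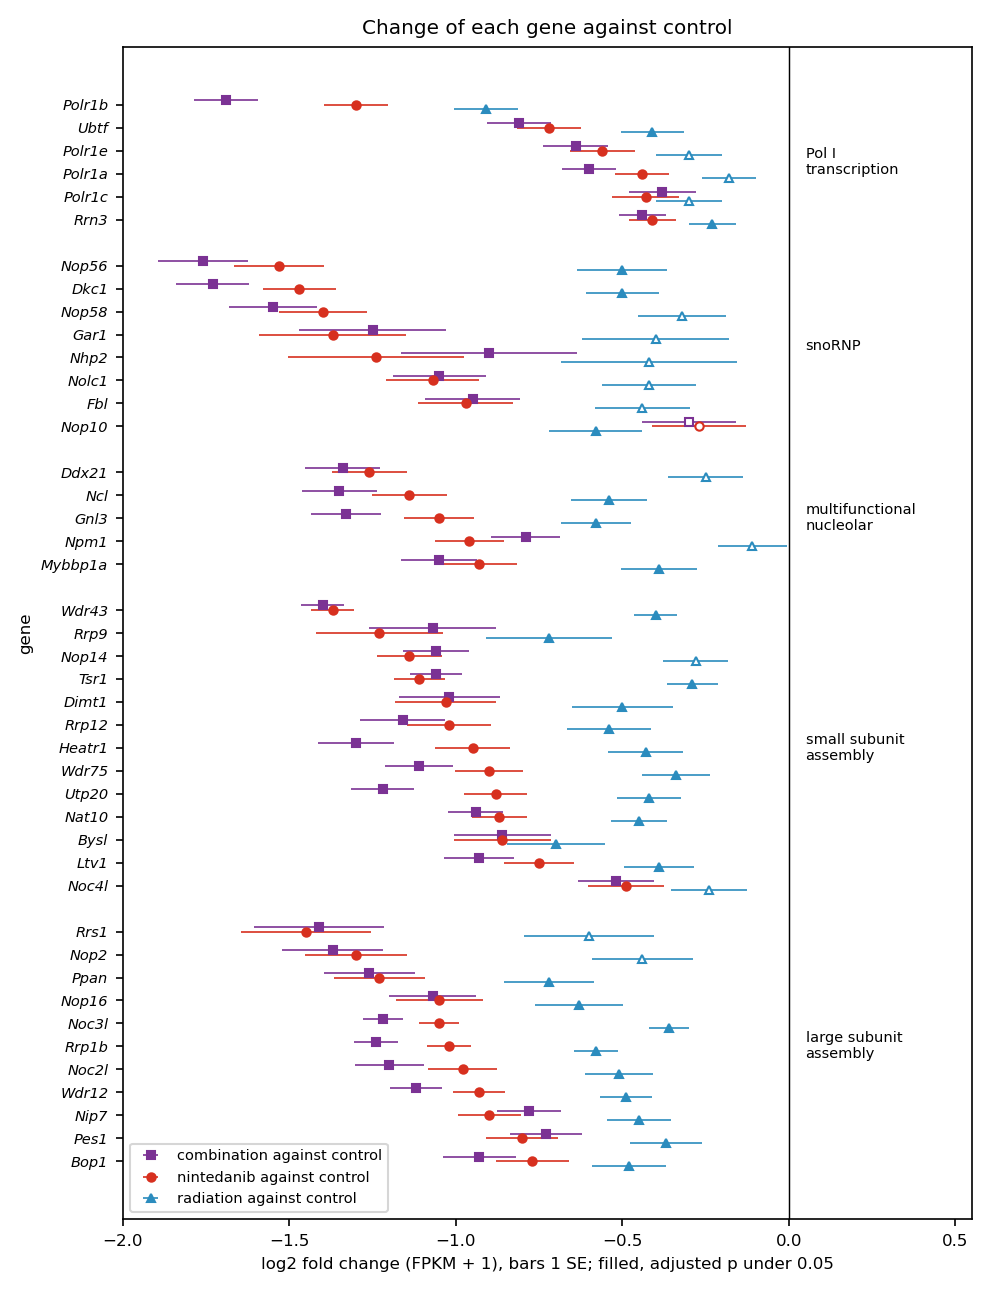
Log2 fold changes on the log2(FPKM + 1) scale (horizontal axis, bars 1 SE of the limma fit) of each of the 43 genes (vertical axis, by role) for combination, nintedanib and radiation, each against control. Filled symbols passed an adjusted p of 0.05; the combination and nintedanib symbols lie close together for most genes, and radiation lies nearer to 0 in all genes but Nop10.

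**Figure D3:**
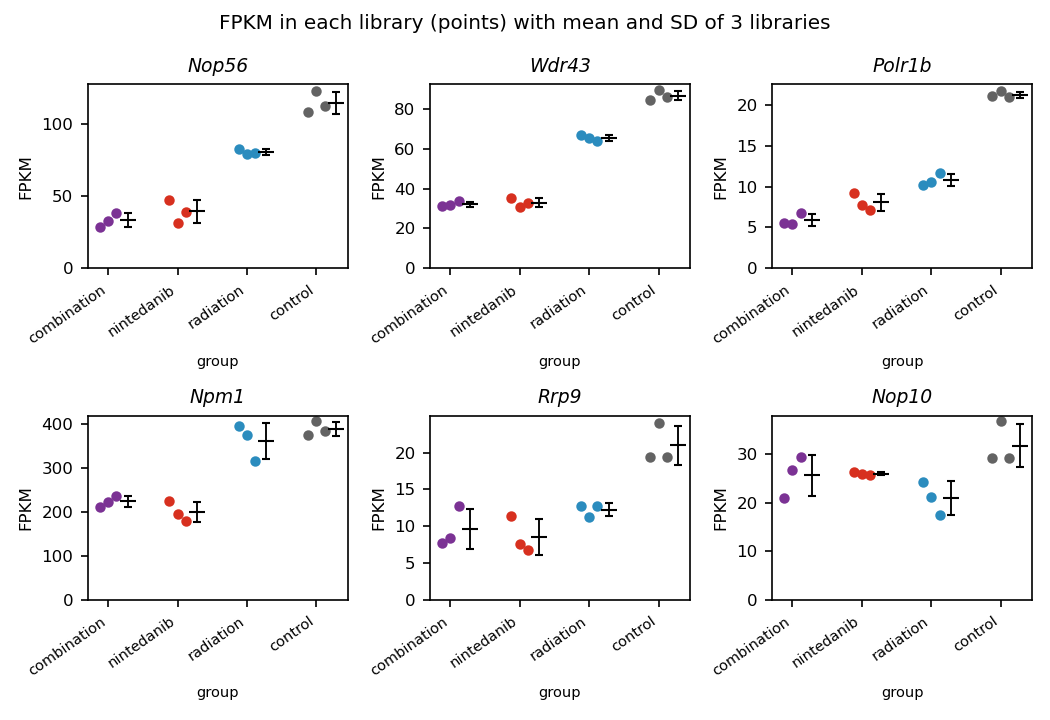
FPKM (vertical axis, from 0) in each library (points) of the 4 groups (horizontal axis) for 6 genes, with the mean and SD of 3 libraries. Polr1b is lowest in the combination, Npm1 with radiation overlaps its control, and Nop10 is lowest with radiation.

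Radiation alone also lowered many of these genes, by smaller amounts. Of the 43 genes, 29 were lower and 0 higher at an adjusted p under 0.05 (limma), where 9.90% of all genes tested were lower and 8.04% higher. The median log2 fold change was -0.43 (range -0.91 to -0.11), against -0.04 over all genes tested. For 41 genes every radiation library lay under every control library, which held for 24.3% of all genes. No gene reached a 2-fold decrease. The count was 15 without radiation replicate 2, where 4.42% of all genes were lower, and 16 without control replicate 2 (5.31% of all genes). It was 19 without control replicate 3 (4.88%), radiation replicate 1 (6.28%) or radiation replicate 3 (6.62%). With FPKM rescaled to a common sum, 19 genes were lower, where 4.44% of all genes were.

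Polr1b changed the most. It had 10.3, 10.6 and 11.7 FPKM in radiation libraries, against 21.1, 21.7 and 21.0 FPKM in control libraries (log2 fold change -0.91, SE 0.096, adjusted p = 0.000219). Radiation brought it to 50.9% of the control mean, while the other 5 polymerase I genes stood at 74.6% to 87.3%. Rrp1b, a nucleolar factor of large subunit processing, had 8.48, 8.92 and 9.05 FPKM with radiation, against 13.8, 14.2 and 13.0 FPKM in controls (-0.58, SE 0.066, adjusted p = 0.000352). Wdr12 of the PeBoW complex fell by 0.49 (SE 0.078, adjusted p = 0.0024) and Wdr43 by 0.40 (SE 0.065, adjusted p = 0.00266) on the log2 scale. By role, 3 of 6 polymerase I genes, 3 of 8 snoRNP genes and 3 of 5 abundant nucleolar proteins were lower. So were 11 of 13 small subunit factors and 9 of 11 large subunit factors, where 9.90% of all genes tested were lower. Among small subunit factors, the call was lost in 13 of the 21 alternatives for Dimt1, 10 for Wdr75, and 7 for Ltv1 and Tsr1. It was lost in 6 for Heatr1 and Rrp9, 3 for Rrp12 and 1 for Utp20.

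Not all of the most drug-responsive genes passed the test after radiation. Nop58 had 32.9, 29.3 and 28.7 FPKM with radiation, against 36.9, 38.6 and 38.6 FPKM in controls, with a log2 fold change of -0.32 (SE 0.132, adjusted p = 0.118). Ddx21 had 55.7, 52.9 and 54.4 FPKM with radiation, against 66.6, 64.4 and 63.2 FPKM in controls (-0.25, SE 0.112, adjusted p = 0.149). The groups did not overlap in either gene, and neither difference passed after adjustment. With only the groups compared in the fit both passed (adjusted p = 0.0174 for Nop58 and 0.0182 for Ddx21), as did Nop58 without nintedanib replicate 2 (adjusted p = 0.0259). The other genes that did not pass were Fbl, Rrs1, Polr1e, Nolc1, Polr1c, Nop2, Nop14, Polr1a, Noc4l, Gar1, Nhp2 and Npm1, and adjusted p over all 14 ran between 0.0539 and 0.524. Fbl and Rrs1 were nearest to the threshold, and each passed in 8 of the 21 alternatives.

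Npm1 and Nop10, both singled out after their values were seen, departed from the rest in opposite ways. Npm1 had 396, 374 and 317 FPKM with radiation, against 375, 407 and 384 FPKM in controls. These groups overlapped, and the log2 fold change was -0.11 (SE 0.104, 95% interval -0.34 to 0.12, adjusted p = 0.524), or 0.00 with FPKM rescaled to a common sum. Nop10 had 24.4, 21.2 and 17.5 FPKM with radiation, against 29.3, 37.0 and 29.2 FPKM in controls (-0.58, SE 0.14, adjusted p = 0.0169). The call was lost without control replicate 2 (-0.47, adjusted p = 0.0658), radiation replicate 2 (-0.59, adjusted p = 0.0513) or radiation replicate 3 (-0.46, adjusted p = 0.0597). By its estimate it was the only one of the 43 genes with a larger decrease after radiation than after nintedanib.

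**Figure D4:**
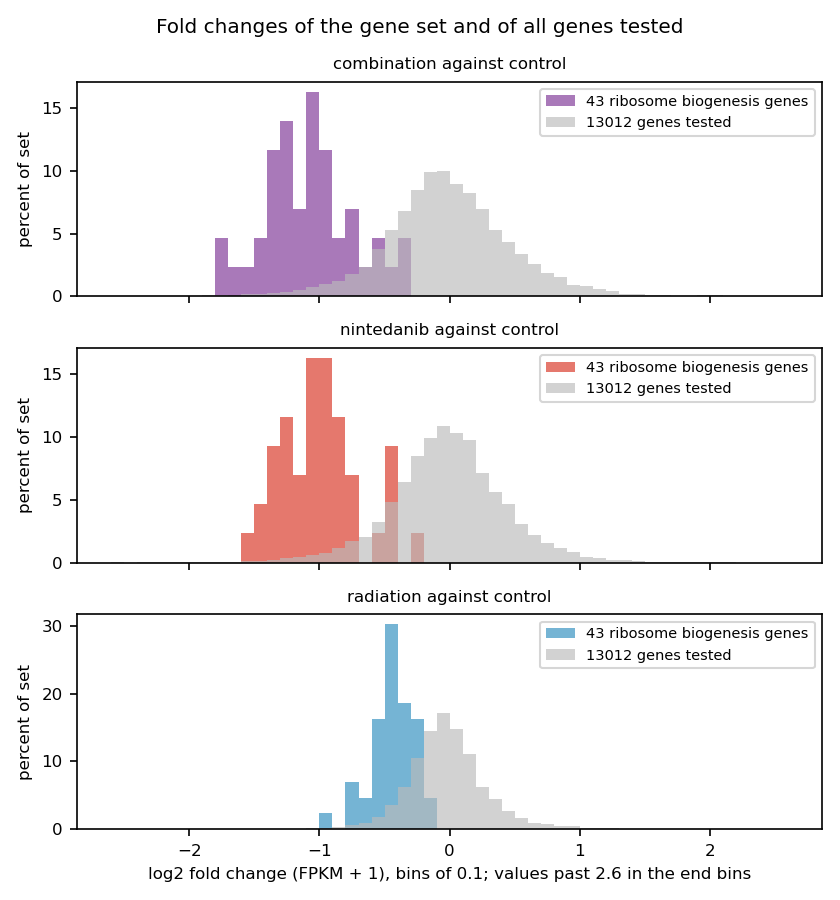
Percent of genes (vertical axis) by log2 fold change on the log2(FPKM + 1) scale (horizontal axis, bins of 0.1) for the 43 ribosome biogenesis genes (coloured) and all 13012 genes tested (grey), for combination, nintedanib and radiation against control. The coloured bars lie to the left of 0 in all 3 panels, with medians of -1.07, -1.02 and -0.43, while the grey bars centre near 0.

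The combination likewise lowered nearly the whole set. Of the 43 genes, 42 were lower than in control and 0 higher (limma, adjusted p under 0.05), where 25.0% of all genes tested were lower and 22.3% higher. The median log2 fold change was -1.07 (range -1.76 to -0.30), against -0.03 over all genes tested, and 42 genes had groups that did not overlap, as did 30.1% of all genes in that direction. At least a 2-fold decrease was reached by 27 genes. The comparisons of each treatment with control share the 3 control libraries, so their values are given side by side.

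Wdr43 again had the smallest adjusted p, with 31.3, 31.7 and 33.7 FPKM in combination libraries, against 84.7, 89.4 and 86.3 FPKM in control libraries (-1.40, SE 0.065, adjusted p = 1.38e-07). Noc3l, an assembly factor of the large subunit, had 10.6, 10.6 and 10.8 FPKM with the combination, against 27.2, 25.6 and 25.6 FPKM in controls (-1.22, SE 0.06, adjusted p = 1.76e-07). Rrp1b had 5.23, 4.75 and 5.70 FPKM with the combination, against 13.8, 14.2 and 13.0 FPKM in controls (-1.24, SE 0.066, adjusted p = 2.54e-07). In these genes the replicates of each group were nearly level. Polr1b was brought lowest relative to control, to 27.8% of the control mean, with 5.58, 5.40 and 6.78 FPKM with the combination, against 21.1, 21.7 and 21.0 FPKM in controls (-1.69, SE 0.096, adjusted p = 3.52e-07). Nop56 had the largest log2 fold change, -1.76 (SE 0.135, adjusted p = 2.37e-06), and Dkc1 followed at -1.73. Nop10 again did not pass, with 21.1, 26.7 and 29.4 FPKM with the combination, against 29.3, 37.0 and 29.2 FPKM in controls (-0.30, SE 0.14, adjusted p = 0.0984).

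Nintedanib also lowered most of the set in irradiated cells. In the combination against radiation alone, 37 of 43 genes were lower and 0 higher (limma, adjusted p under 0.05), where 17.3% of all genes tested were lower and 17.2% higher. The median log2 fold change was -0.63 (range -1.26 to 0.28), against -0.01 over all genes tested, and the median gene stood at 62.6% of its radiation mean. For 37 genes the groups did not overlap, as for 24.1% of all genes in that direction. Wdr43 had 31.3, 31.7 and 33.7 FPKM in combination libraries, against 67.1, 65.7 and 64.1 FPKM in radiation libraries (-1.0, SE 0.065, adjusted p = 1.91e-06). Noc3l fell by 0.86 (SE 0.06, adjusted p = 2.78e-06), Dkc1 by 1.22 (SE 0.11, adjusted p = 1.53e-05) and Tsr1 by 0.77 (SE 0.077, adjusted p = 2.74e-05) on the log2 scale. The largest decreases were again in Nop56 (-1.26) and its partner Nop58 (-1.23). The 6 genes that did not pass were Nhp2 (-0.49), Rrp9 (-0.35), Noc4l (-0.28), Bysl, a late small subunit factor (-0.16), Polr1c (-0.08) and Nop10 (0.28). Of these, Rrp9 passed without combination replicate 3 (adjusted p = 0.039), and Nop10 as higher without combination replicate 1 (0.41, adjusted p = 0.0395). Noc4l passed without combination replicate 3 (adjusted p = 0.0284) or radiation replicate 2 (adjusted p = 0.0134). It also passed with FPKM rescaled to a common sum (adjusted p = 0.0301). Among the genes that passed, Rrn3 lost its call in 11 of the 21 alternatives, Nop16 and Pes1 in 5, Dimt1 in 4, Fbl and Polr1e in 3 and Nip7 in 2.

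Few of these genes differed between the combination and the drug alone beyond the error. In the combination against nintedanib alone, 1 of 43 genes was lower and 0 higher (limma, adjusted p under 0.05), where 2.37% of all genes tested were lower and 3.17% higher. The median log2 fold change was -0.07 (range -0.39 to 0.33), against -0.01 over all genes tested, with 30 negative and 13 positive. This balance depended on single libraries. Without nintedanib replicate 1 it was 21 negative and 22 positive (median 0.00), without combination replicate 1 it was 23 and 20 (median -0.02), and without nintedanib replicate 3 it was 37 and 6 (median -0.11). The 95% intervals of the 43 genes ran between -0.60 and 0.91, so a moderate change in single genes was within the error. At an unadjusted p under 0.05 there were 8 genes (18.6%), against 22.0% of all genes tested. That count was 15 without combination replicate 3, 14 without nintedanib replicate 2, 5 without combination replicate 1 or 2, and 4 with only the groups compared in the fit. The share of all genes at this threshold was not taken in those settings.

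Polr1b was the gene that passed. It had 5.58, 5.40 and 6.78 FPKM in combination libraries, against 9.27, 7.74 and 7.203 FPKM in nintedanib libraries (-0.39, SE 0.096, adjusted p = 0.0395). The groups did not overlap, but the call was lost without nintedanib replicate 1 or 2, combination replicate 1 or 2, radiation replicate 1 or 2, or any 1 control library (log2 fold changes of -0.41 to -0.30, adjusted p of 0.0542 to 0.144). It was also lost with no filter (adjusted p = 0.0821), with a replicate block (adjusted p = 0.0763) and with only the groups compared in the fit (adjusted p = 0.188). The next smallest adjusted p values belonged to Utp20, a large scaffold of the small subunit precursor (-0.34, adjusted p = 0.0653), Rrp1b (-0.22, adjusted p = 0.0857) and Heatr1, a factor for polymerase I transcription and early processing (-0.35, adjusted p = 0.102). Utp20 passed with limma-voom (adjusted p = 0.0364), with protein-coding genes only (adjusted p = 0.0453), with the block (adjusted p = 0.0368) and without nintedanib replicate 2 (adjusted p = 0.0403). Utp20 had 9.16, 7.83 and 9.60 FPKM with the combination, against 12.2, 9.98 and 12.2 FPKM with nintedanib. Heatr1 had 9.26, 6.80 and 9.03 FPKM with the combination, against 11.5, 9.40 and 11.7 FPKM with nintedanib. Counting Noc3l too, 5 genes had every combination library under every nintedanib library, as did 11.8% of all genes tested, and 0 had every one above, as did 10.4%.

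The combined effect was smaller than the sum of the single effects by the estimates of all 43 genes (39 with FPKM rescaled to a common sum), but no single gene passed the test. The interaction sets the change by nintedanib with radiation against its change without, as a difference of log2 fold changes, and a positive value means a smaller decrease by the drug in irradiated cells. It was positive for 43 of 43 genes, with a median of 0.34 on the log2 scale (range 0.03 for Polr1a to 0.88 for Rrp9), against 0.01 over all genes tested. The sum of the single effects had a median of -1.42, against -1.07 for the combination. None of the 43 was called by limma, with a lowest adjusted p of 0.198, where 0.00% of all genes tested were lower and 0.00769% higher, a single gene (Egr1, named after its values were seen). At an unadjusted p under 0.05 there were 22 of the 43 genes (51.2%), against 12.9% of all genes tested, and limma-voom on recovered fragments gave 0 calls and 20 such genes. That count was 12 with libraries scaled to 1 shared total and 15 with the replicate block. It was 13 without control replicate 2 or combination replicate 3, 14 without nintedanib replicate 2 or radiation replicate 2, and 34 without nintedanib replicate 1. The share of all genes was taken in the main fit only. In the main fit the share was therefore higher among the 43 genes than over all genes tested. For the alternatives the counts cannot be told from a general shift in small p values. The 43 estimates come from the same 12 libraries and are not independent of each other.

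Nip7, a factor of large subunit maturation, had the smallest adjusted p of the interaction (0.58, SE 0.134, adjusted p = 0.198). It had 20.8, 23.5 and 25.9 FPKM with the combination, 23.5, 19.6 and 20.9 FPKM with nintedanib, 32.6, 28.3 and 27.8 FPKM with radiation, and 39.7, 42.2 and 40.0 FPKM in controls. Its combination and nintedanib libraries overlapped, while radiation libraries lay between those and the controls. Wdr43 (0.37, SE 0.092, adjusted p = 0.206), Rrp1b (0.36, SE 0.094, adjusted p = 0.21) and Polr1b (0.52, SE 0.136, adjusted p = 0.214) came next. With FPKM rescaled to a common sum the median interaction of all genes moved by -0.115 on the log2 scale, 39 of the 43 genes stayed positive, and their median was 0.31 above that of all genes. Without nintedanib replicate 2, 40 genes were positive, and without nintedanib replicate 3, 42.

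**Figure D5:**
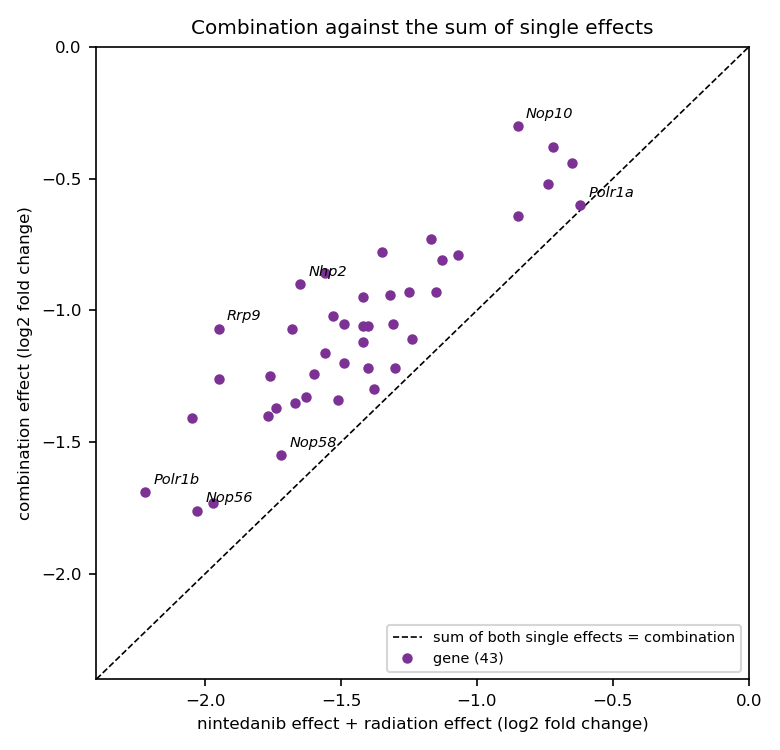
Combination effect (vertical axis) against the sum of the nintedanib and radiation effects (horizontal axis), both log2 fold changes against control on the log2(FPKM + 1) scale, for each of the 43 genes (points), with the line of equality dashed. All points lie above the line (39 of the 43 do after rescaling to a common sum), with medians of -1.07 for the combination and -1.42 for the sum.

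Many further genes of the pathway were lower too, with a smaller median change. A list of 136 further ribosome biogenesis symbols was used, of which 126 were found and tested. With nintedanib 104 of them were lower and 0 higher (limma, adjusted p under 0.05), where 22.0% of all genes tested were lower and 19.7% higher. Their median log2 fold change was -0.59, against -0.02 over all genes tested. With radiation 47 were lower and 0 higher (median -0.30), where 9.90% of all genes tested were lower and 8.04% higher. With the combination 97 were lower and 0 higher (median -0.61), where 25.0% of all genes were lower and 22.3% higher. In the combination 70 were lower and 0 higher than with radiation alone (median -0.36), where 17.3% of all genes were lower and 17.2% higher. Against nintedanib alone 0 passed in either direction, where 2.37% of all genes were lower and 3.17% higher. In the interaction 0 passed, where 0.00% of all genes were lower and 0.00769% higher.

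By class, nintedanib lowered 8 of 14 further polymerase I genes, 7 of 9 snoRNP genes, 36 of 42 small subunit genes, 36 of 41 large subunit genes and 17 of 20 genes for rRNA trimming and RNase MRP. Over all genes tested, 22.0% were lower. The largest change was that of Nol10, an early small subunit factor, at 9.91 ± 0.923 FPKM with nintedanib and 25.4 ± 0.384 FPKM in controls (SD, n = 3 each; -1.28, SE 0.065, adjusted p = 2.39e-07 by limma). Znhit6, needed to assemble box C/D snoRNPs, fell by 1.15, and Naf1, which assembles H/ACA snoRNPs, by 0.88. Nifk, a nucleolar partner of the Ki-67 protein, fell by 1.08 and Rsl1d1 by 1.06. The kinase Riok2, which matures the small subunit, fell by 0.91, and Taf1d, a subunit of the polymerase I promoter factor, by 0.75. The polymerase I subunit Twistnb fell by 0.72. Of the nucleases, Dis3 of the RNA exosome fell by 0.84 and the exonuclease Xrn2 by 0.54, all on the log2 scale.

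The 43 genes varied together across the 12 libraries. The Pearson correlation of each gene with the mean of the others (standardised log2 values) had a median of 0.970, and 40 of 43 were at least 0.9. The exceptions were Nhp2 (0.880), Polr1c (0.846) and Nop10 (0.348). These values describe 12 libraries in 4 groups and include the differences between the groups. The share of all genes tested that reached 0.9 was not counted, so the values do not set these genes apart. Among all genes tested outside the set, the patterns most like the mean of the 43 over the 12 libraries were those of 2410002F23Rik (r = 0.998), Nsun2 (0.996), Wdr4 (0.995), Tbrg4 (0.995) and Rcl1 (0.994), the last of which is also in the further pathway list. Nsun2 is a tRNA methyltransferase and Wdr4 a subunit of another.

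Some genes share sequence with others, and no strand setting of the counting is named in the sources used here. By the deposited coordinates 15 of the 43 overlap a protein-coding gene, all on the opposite strand, so reads from such overlaps cannot be told apart. The neighbours include Idh3b for Nop56, Mpp1 for Dkc1, Pbrm1 for Gnl3, Parp3 for Rrp9, Mroh1 for Bop1 and Kif2a for Dimt1. Inside 8 of the genes lie 23 annotated snoRNA genes, which guide rRNA modification themselves, with 5 in Nop56, 4 in Nop58, 3 each in Gnl3, Ncl and Wdr43, 2 each in Ppan and Tsr1 and 1 in Dkc1. Described pseudogene copies of Fbl, Nop56, Nop10 and Npm1 were in the table at no more than 0.318 FPKM. Reads shared with such copies could not be separated here.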

How the data were processed

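RNA-seq was made from 12 MC38 libraries in 4 groups of 3, named by the sample titles. The authors deposited 1 table of FPKM values for 54532 genes with coordinates and gene model lengths, per the file headers. Per the submitters' processing notes the build is GRCm38 (mm10). No aligner, counter, strand setting or annotation release is named in the sources used here. Per the labels' protocols, libraries came from a SMARTER mRNA kit and total RNA. FPKM multiplied by gene model length gave whole multiples of 1 step for 100% of nonzero values in each library (within 0.01 of a step), from which fragments were recovered. The depth the FPKM values imply was 0.970 to 1.03 times these totals, so the deposited values include a factor per library whose origin is not given in the labels. Intervals cover the spread between libraries, and without molecular identifiers fragments are not independent molecules. Replicates were checked for 1 library deposited more than once, and every pair differed by more than counting noise (chi-square per gene 4.53 to 33.1, highest in the pairs of nintedanib replicate 3).

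The test was limma 3.58.1 (R 4.3.3; empirical Bayes with trend, two-sided) on log2(FPKM + 1) over all 12 libraries with group means and 8 residual degrees of freedom. It covered the 13012 genes that reached 1 FPKM in 3 or more libraries, with Benjamini-Hochberg adjustment per comparison at 0.05. The fold scale understates the change of low genes. The labels do not say that the replicate numbers pair the samples, and the main fit used no pairing. Alternatives were a pseudocount of 0.1, no filter, an FPKM of at least 5, FPKM rescaled to a common sum, libraries centred on their median, protein-coding genes only, limma-voom on recovered fragments, a replicate block, only the groups compared, and leaving out each library.

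The members, the roles, the further pathway list and the markers were chosen with earlier results of these data known. Library values are given, by role, for the 3 genes with the largest and the 1 with the smallest change with nintedanib. The 4 genes with the smallest adjusted p are named in each other comparison, and, per class of the further list, the 2 with the smallest adjusted p with nintedanib.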

Additional observations from a re-analysis of the deposited data

How the results depend on the processing

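With nintedanib, 42 genes were lower in each of the 21 alternatives, and with the combination 41 or 42. Over all genes tested in these settings, 8.4% to 29% were lower with nintedanib and 10% to 31.6% with the combination. The radiation count of 29, where 9.90% of all genes tested were lower, depended on the setting. It was 19 with FPKM rescaled to a common sum (4.44% of all genes) and 20 with no filter (2.86% of the 30404 genes then tested). With the replicate block it was 24 (7.37%), and with only the groups compared in the fit 38 (12.5%). When 1 library was left out it ran between 15 (4.42%, without radiation replicate 2) and 35 (10.7%, without nintedanib replicate 1). In the combination against radiation, 30 to 39 genes were lower and 0 to 1 higher when 1 library was left out (1 without combination replicate 1). In these settings 13.4% to 18.3% of all genes tested were lower, and 16.5% were higher without combination replicate 1. In the combination against nintedanib, the count of 1 was 0 with no filter (0.631% of all genes tested were lower) and with only the groups compared (0.0615%). It was 2 with protein-coding genes only (3.61%) and with limma-voom (2.94%). With 1 library left out it was 0 to 1 (0.722% to 2.26%). The gene called was Utp20 and not Polr1b without nintedanib replicate 2 and with the replicate block. The cause was not tested. The interaction gave 0 calls throughout.

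Rescaling to a common sum moved the share of higher genes among all called genes to 60.0% for nintedanib (47.2% as deposited) and to 69.7% for radiation (44.8%; 59.6% with limma-voom), so the counts over all genes depend on the scaling. Same-numbered libraries of different groups had correlations of -0.298 to 0.202, 3 of 18 above 0.1. Libraries of different groups with different numbers had -0.244 to 0.29, 10 of 36 above 0.1. Such values cannot exclude that libraries were paired. With a replicate block 42 genes were lower with nintedanib, 24 with radiation, 42 with the combination and 36 in the combination against radiation. Of all genes tested, 20.6%, 7.37%, 23.2% and 15.7% were lower in the same order. In the combination against nintedanib the block lost Polr1b (adjusted p = 0.0763) and gained Utp20 (adjusted p = 0.0368). Of the called genes, 42 of 42 (nintedanib), 14 of 29 (radiation), 41 of 42 (combination), 30 of 37 (combination against radiation) and 0 of 1 (combination against nintedanib) were called in every alternative. Values near the threshold are limited by 3 libraries per group.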
